A study of Saccharomyces cerevisiae with 36 samples.

Results

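The data are the ribosome footprints of wild-type Saccharomyces cerevisiae of the W303a background at 6 h and at 3 h of iron deficiency, compared over all genes. They are 6 of the 36 libraries of the study, 3 biological replicates at each time, and were picked by assay, strain and hours in the chelator as the sample labels give them. Cultures grew at 30 °C in Kaiser SC medium to early exponential phase and received 100 µM BPS (bathophenanthroline disulfonic acid), which binds ferrous iron. Both times are therefore iron-deficient, and the comparison describes a late step and not the onset of the deficiency. Wild-type cells without BPS (0 h), poly(A) RNA of the same lysates, and the cth1Δcth2Δ strain, which lacks both CTH1 and CTH2 (listed as TIS11) and was treated the same way, are quoted beside the results where they bear on them. All cells were of one strain background, and the labels give no auxotrophic markers, no culture density at harvest and no measure of iron in the cells. The question is which messages ribosomes occupied more or less as iron deficiency went on from 3 h to 6 h.

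Ribo-seq counts the mRNA fragments that single 80S ribosomes shield from RNase I, so a gene's count follows both the amount of its mRNA and the number of ribosomes on each copy. In yeast, low iron frees the transcription factors Aft1 and Aft2 to switch on the iron regulon, the genes for iron uptake and reuse. One of its products, the zinc-finger protein Cth2, and its relative Cth1 bind AU-rich elements and lower the mRNAs of proteins that consume iron, such as respiratory enzymes. Growth by fermentation, respiration and the synthesis of ribosomes are the other large users of a cell's resources, and yeast that stops growing is known to shut down ribosome genes and switch on stress and reserve genes.

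Total footprint counts were 2254894 to 28491058 in the 6 libraries, and 3 counts, the least that shows a level, stood at 0.111 to 1.31 CPM, a unit in which counts are scaled to a library of 1000000 after TMM normalisation, and this floor covers counting error only. The labels mention no molecular identifiers, and the chi-square statistic between replicates was 64 to 228.2 per degree of freedom, far above sampling noise, so each library was counted as its own replicate. One library stood apart. Replicate 2 of 3 h lay at 13.68 on the first principal component of the wild-type libraries (68.5% of the variance), between the other 3 h libraries at -29.25 and -25.92 and the 6 h libraries at 55.29 to 80.17. It also held 2.32% of its counts in genes of the stress response against 0.681% and 0.961% in the other 3 h libraries. Results that rest on it are given with and without it. The MATa genes STE2 and MFA2, for the alpha-factor receptor and a-factor, went with the label, at 144 and 69.9 CPM at 3 h. The alpha1 and alpha2 genes of the silent HML cassette had no count in any of the 6 libraries. How reads that match several genes were counted is not given in the sources used here, so this lack of counts cannot decide the mating type. STE3, the a-factor receptor of the other mating type, was at 1.14 CPM at 3 h and 5.04 CPM at 6 h. Of 7 MATa markers 2 rose in the late step, and of 6 MATalpha markers 1 passed the low-count filter, STE3, which rose by 2.36 (adjusted p = 0.00328). No mitochondrially encoded gene passed the low-count filter.

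Footprints of 2145 of the 5315 features tested changed from 3 h to 6 h (40.4%), 1154 rising (21.7%) and 991 falling (18.6%), at an adjusted p of 0.05 in the quasi-likelihood test of edgeR, adjusted over all features by Benjamini-Hochberg; 2623 (49.4%) had an unadjusted p under 0.05. "Rose" and "fell" are used below only of genes past this threshold, and every adjusted p is from this test unless another is named. Changes are log2 fold changes of 6 h over 3 h. The rises were the larger changes: 345 features rose at least 4-fold and 176 fell at least 4-fold, while 147 rose and 2 fell at least 8-fold. The extremes were -3.11 and 7.39, and the median over all features was 0.06. In 1764 of the 2145 changed features the 3 libraries of one time lay wholly above those of the other, and libraries were separated upward in 1157 features (21.8%) and downward in 1043 (19.6%). Without replicate 1 of 3 h the count of changed features dropped to 1362, 712 up and 650 down. Counts are relative within a library, so a share that grows pushes others down, and fewer cells that use a gene cannot be told apart from less of its RNA per cell.

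**Figure D1:**
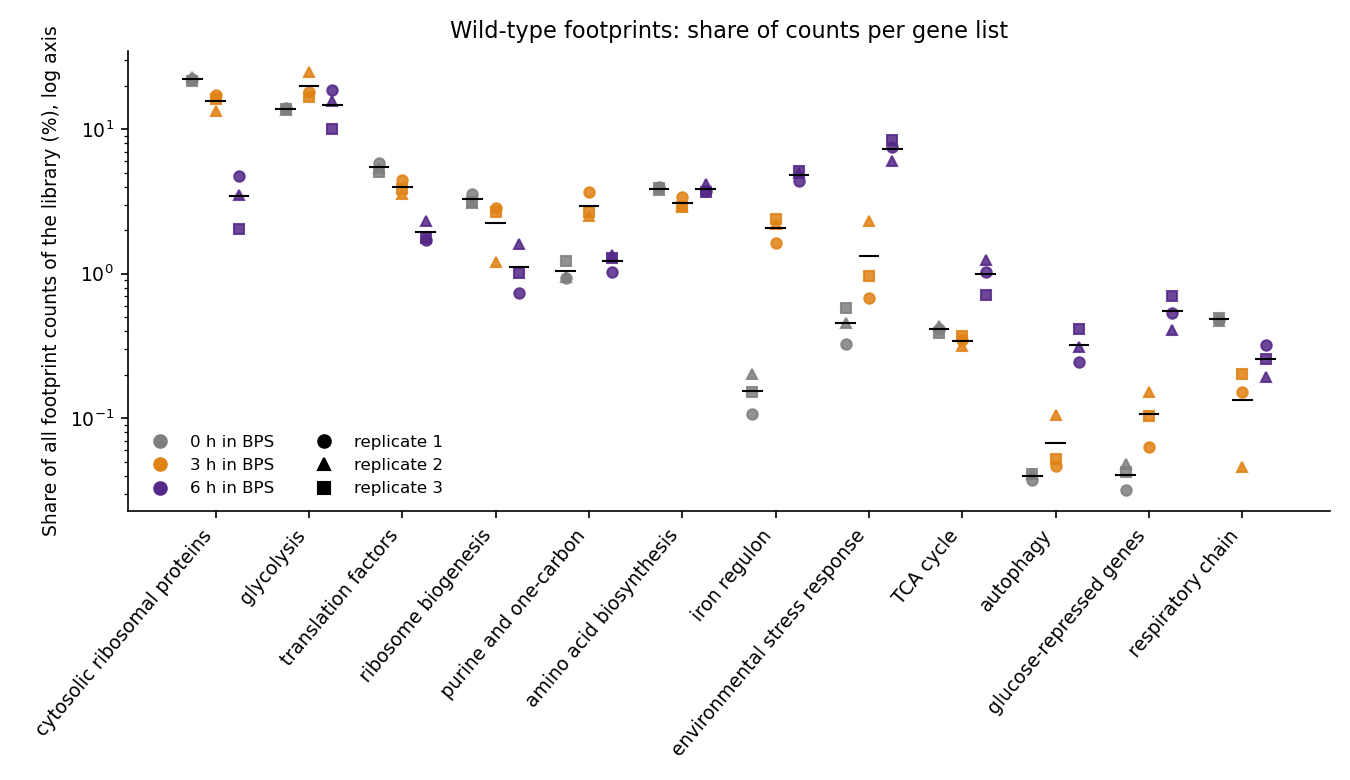
Share of all footprint counts (%, log axis) that fell in each of 12 gene lists, for every wild-type library at 0 h, 3 h and 6 h in BPS. Symbols mark replicates and black lines the mean of 3; cytosolic ribosomal protein genes dropped from a mean of 15.6% at 3 h to 3.44% at 6 h while stress response genes went from 1.32% to 7.34%.

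The lowest median of the lists described was that of the ribosome itself. Of 135 cytosolic ribosomal protein genes tested, out of 138 listed, 134 fell and none rose, where 18.6% of all features fell. The median log2 fold change was -2.31 against 0.06 over all features. In 133 every 6 h library lay below every 3 h library (19.6% of all features did). The genes of the list held 17.1%, 13.4% and 16.2% of all footprint counts in the 3 libraries of 3 h and 4.77%, 3.50% and 2.05% in those of 6 h. Leaving out any 1 of the 6 libraries left 132 to 134 of them called lower. Many ribosomal proteins have a near-identical paralogue, and how reads that match both copies were counted is not given in the sources used here, so the split between A and B copies is uncertain.

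RPL3, a core protein of the large subunit, had 9080, 7410 and 7854 CPM at 3 h and 2366, 2456 and 1661 CPM at 6 h. The log2 fold change was -1.91 (SE 0.23, adjusted p = 4.02e-05). Every 6 h value was far below the lowest 3 h value. RPS31, which encodes a ribosomal protein fused to ubiquitin and had the highest level per kilobase of the list, went from 3579, 3841 and 3379 CPM to 795, 619 and 417 CPM, a change of -2.56. Here too the times did not overlap. The steepest fall was in RPL9A, from 1744, 1385 and 1572 CPM to 250, 226 and 121 CPM (-2.98, SE 0.33, adjusted p = 3.43e-05), followed by RPL1A at -2.96, RPS22A at -2.84, RPS20 at -2.78 and RPS18A at -2.76. RPL15B was the gene of the list that did not pass, with 55.6, 54.8 and 47.5 CPM at 3 h and 54.7, 45.0 and 33.9 CPM at 6 h, and its groups overlapped.

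Genes for building ribosomes fell too, but by less and less evenly. Of 110 ribosome biogenesis genes 68 fell and none rose (61.8%, against 18.6% of all features falling), with a median of -1.04, and in 26 every 6 h library lay below every 3 h library (19.6% of all features did). This count depended on single libraries: it was 36 without replicate 1 and 38 without replicate 3 of 3 h, 99 without replicate 2 of 3 h, and 42 and 38 without replicates 1 and 3 of 6 h. NHP2, a core protein of the box H/ACA particles, had 350, 182 and 343 CPM at 3 h and 85.3, 72.3 and 38.1 CPM at 6 h (-2.17, SE 0.31, adjusted p = 0.000111), and its partner NOP10 changed by -2.11. NOP1, the fibrillarin methyltransferase and the highest of the list per kilobase, went from 1347, 686 and 1100 CPM to 315, 484 and 279 CPM (-1.54), without overlap. NIP7 and RLP24, which act on precursors of the large subunit, fell by 1.93 and 1.91.

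NSR1, the yeast nucleolin, had 1828, 492 and 1336 CPM at 3 h and 280, 674 and 319 CPM at 6 h. The log2 fold change was -1.52 (SE 0.50, adjusted p = 0.0241), the groups overlapped, with replicate 2 the lowest of 3 h and the highest of 6 h. NSR1 did not pass without replicate 1 or 3 of 3 h (-1.1 and -1.49, adjusted p = 0.127 and 0.0592) or without replicate 1 or 3 of 6 h (-1.30 and -1.35, adjusted p = 0.0768 and 0.0891). RPA190, the largest subunit of RNA polymerase I, which makes ribosomal RNA, had 863, 407 and 711 CPM against 178, 492 and 457 CPM, a change of -0.81 (SE 0.39, adjusted p = 0.108) that did not pass; it passed without replicate 2 of 3 h (-1.1, adjusted p = 0.0361). Of 34 genes of RNA polymerases I and III and their factors, 15 fell and 2 rose (median -0.58), against 18.6% and 21.7% of all features. The falls were steepest in small subunits, RPC11 of polymerase III at -2.35 and RPA12 and RPA34 of polymerase I at -2.13 and -1.99. The genes that rose were TFC3, of a polymerase III initiation factor, and MAF1, the repressor of polymerase III; without replicate 1 or 3 of 3 h or replicate 3 of 6 h neither passed and 11 fell, and TFC3 also did not pass without replicate 2 of 6 h (0.83, adjusted p = 0.0851).

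The promoters of ribosome biogenesis genes are known for a pair of sequence elements, PAC (searched as GCGATGAG) and RRPE (AAAAATTTT), and they are shown for NSR1 and RPA190 because these genes stand on either side of the threshold. The windows run from 250 to 101 bases before the start codon in RefSeq's R64 genome of strain S288C, each is written 5′ to 3′ along its gene, and capitals mark matches on either strand.
NSR1 promoter window, chrVII:807757-807906, reverse strand: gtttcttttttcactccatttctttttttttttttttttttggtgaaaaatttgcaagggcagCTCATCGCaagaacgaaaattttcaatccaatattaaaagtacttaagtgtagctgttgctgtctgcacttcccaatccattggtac
RPA190 promoter window, chrXV:960737-960886, forward strand: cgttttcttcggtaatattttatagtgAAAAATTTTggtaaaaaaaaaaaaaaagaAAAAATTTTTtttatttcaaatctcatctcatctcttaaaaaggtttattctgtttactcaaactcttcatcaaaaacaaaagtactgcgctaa
In NSR1 the match is to PAC on the opposite strand, and in RPA190 both matches are to RRPE, the second being a stretch where the element and its reverse complement overlap. RRPE was in the window of 69 of 110 ribosome biogenesis genes (62.7%) and of 5.44% of all 5988 promoters, and PAC in 40 of 110 (36.4%) and in 2.69% of all. Among all genes whose footprints fell 17.4% held RRPE, and among those that rose 1.57%. A match is a description of the letters and was not tested as a binding site.

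Most translation factor genes fell. Of 43 translation factor genes tested 34 fell, 3 rose and 6 did not pass (median -1.12), where 18.6% of all features fell and 21.7% rose. EFB1, a subunit of the exchange factor for elongation factor 1A and the highest of the list per kilobase, went from 3634, 2097 and 3110 CPM to 1019, 611 and 312 CPM (-2.19, SE 0.40, adjusted p = 0.000591). EFB1 hosts the small nucleolar RNA gene SNR18 in its intron, and the counting of that overlap is not given in the sources used here. STM1, which binds ribosomes and preserves idle ones, went from 3739, 3551 and 3185 CPM to 1071, 922 and 608 CPM (-2.01, SE 0.24, adjusted p = 4.6e-05). TEF1, for elongation factor 1A, with a paralogue of the same protein sequence, went from 1069, 1042 and 995 CPM to 447, 610 and 317 CPM (-1.18). Both EFB1 and STM1 were separated between the times, as was TEF1. The 3 that rose were HEF3, a rarely used second gene for elongation factor 3, from 1.37, 1.06 and 1.41 CPM to 11.8, 17.9 and 27.6 CPM (3.86), the kinase gene GCN2 (1.02), and GCN4, described with amino acid synthesis.

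Mitochondrial ribosomal protein genes, a separate set, fell in part: 21 of 74 fell and none rose (28.4%, against 18.6% of all features falling), with a median of -0.51. The count was 7 and 8 without replicates 1 and 3 of 3 h, 8 and 6 without replicates 2 and 3 of 6 h, and 32 without replicate 2 of 3 h. MRPL50 was the clearest, from 20.8, 13.0 and 26.8 CPM to 6.56, 7.74 and 6.48 CPM (-1.54, adjusted p = 0.00259), with no overlap.

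**Figure D2:**
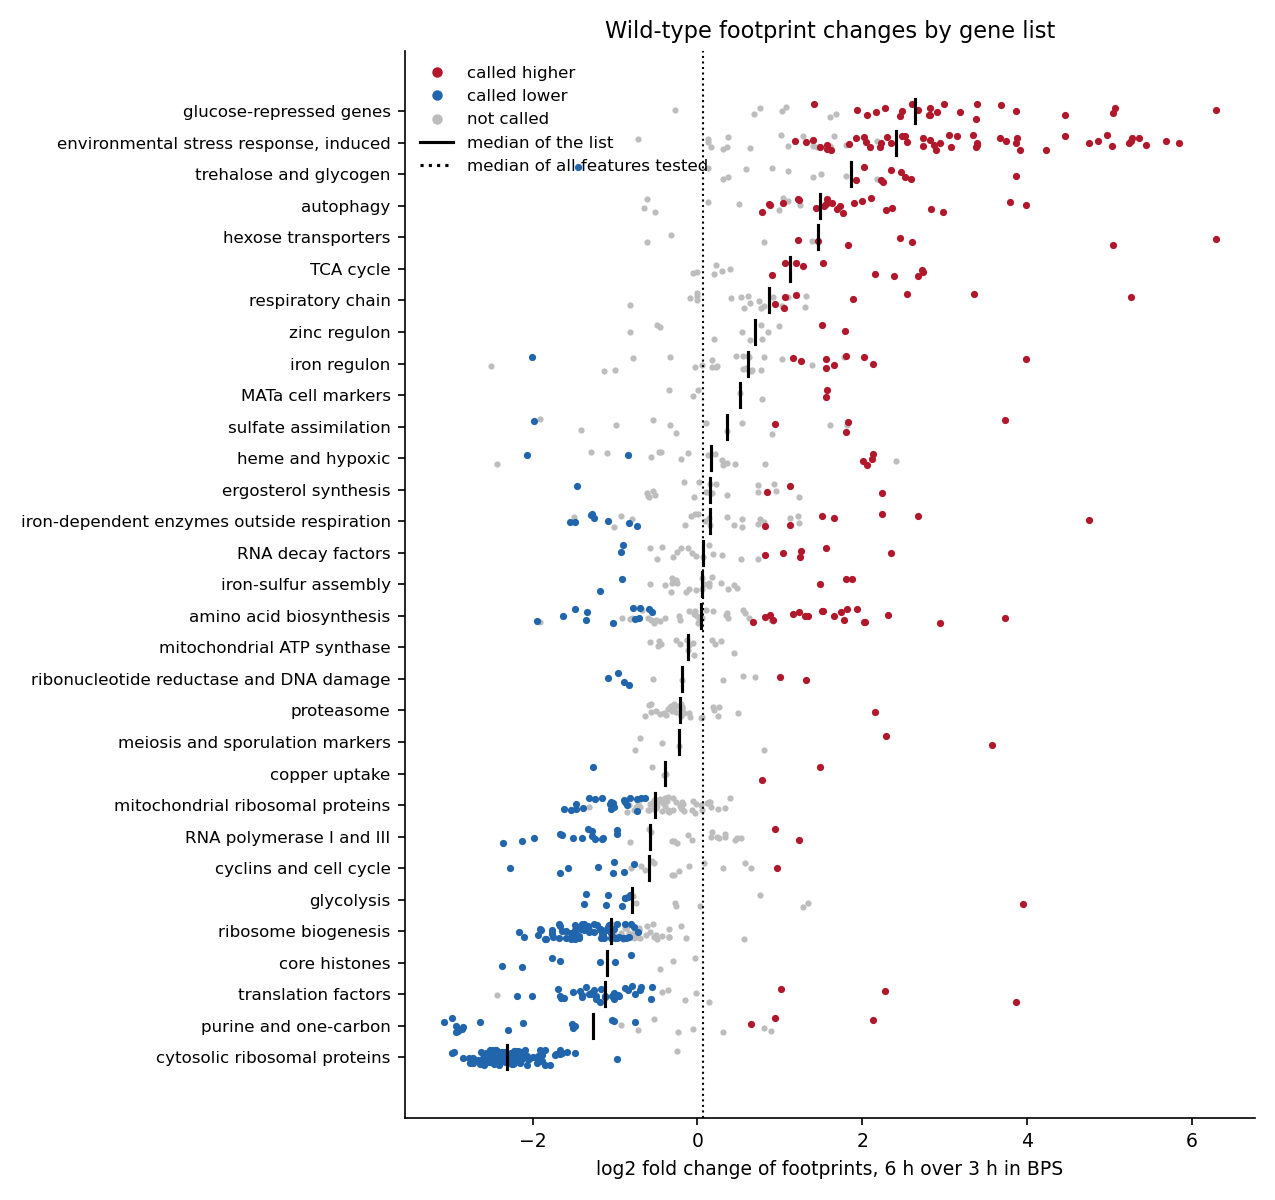
Log2 fold change of wild-type footprints (6 h over 3 h) for each tested gene of each list with at least 6 tested members. Points are genes, red called higher, blue called lower and grey not called; black bars are list medians, from -2.31 for cytosolic ribosomal proteins to 2.64 for glucose-repressed genes, and the dotted line is the median of all features (0.06).

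Genes of the purine and one-carbon pathways, which make the purine bases and supply their carbon units through folate and glycine, fell as well. This list of 29 genes was drawn up after values of these data were seen, so its counts describe and support nothing. Of 28 tested, 17 fell and 3 rose (median -1.26), against 18.6% and 21.7% of all features. In 19 every 6 h library lay below every 3 h library (19.6% of all features did). Their share of all footprint counts was 3.66%, 2.49% and 2.67% at 3 h and 1.03%, 1.35% and 1.29% at 6 h, with a mean of 1.04% at 0 h. From 0 h to 3 h 14 of them had risen and 1 had fallen (median 1.43), against 3.67% and 1.81% of all features in that step. Strains of the W303 family commonly carry a nonsense allele of ADE2, and whether these strains do is not stated in the labels.

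SHM2, cytosolic serine hydroxymethyltransferase, which takes a carbon unit from serine to folate, was at 954, 1002 and 1696 CPM at 0 h, 10642, 4232 and 7088 CPM at 3 h and 1063, 1012 and 959 CPM at 6 h. The late change was -2.86 (SE 0.50, adjusted p = 0.000468). ADE17, which performs the last steps of purine synthesis, was at 126, 223 and 572 CPM at 0 h, 4913, 4020 and 3166 CPM at 3 h and 451, 546 and 592 CPM at 6 h, a late change of -2.93 (SE 0.63, adjusted p = 0.00208). In both genes the 3 h libraries stood alone and above all others. The 3 genes of the glycine cleavage complex fell together: GCV2 from 1211, 305 and 733 CPM to 79.7, 99.3 and 106 CPM (-2.98, SE 0.73, adjusted p = 0.00469), GCV1 by 2.90 and GCV3 by 2.84. MTD1, a dehydrogenase of the cytosolic folate cycle, had the steepest fall of the list, from 843, 493 and 542 CPM to 74.0, 79.2 and 69.1 CPM (-3.08). ADE8, for an early formylation step, went from 291, 173 and 221 CPM to 41.6, 26.8 and 22.7 CPM (-2.93). None of these genes overlapped between the times, but they were picked among the largest falls by a rule that required this. ADE2 itself went from 1070, 848 and 660 CPM to 261, 353 and 284 CPM (-1.52, adjusted p = 0.0103).

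The transcription factor Bas1, with Pho2, switches purine genes on through the core TGACTC, which is also the core of the Gcn4 element. The windows of 3 of the steepest falls are shown, drawn as above, with TGACTC or its reverse complement in capitals.
SHM2 promoter window, chrXII:259502-259651, reverse strand: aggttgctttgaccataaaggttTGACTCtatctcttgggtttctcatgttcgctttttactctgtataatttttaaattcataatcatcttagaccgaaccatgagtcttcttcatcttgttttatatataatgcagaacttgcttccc
ADE17 promoter window, chrXIII:509381-509530, reverse strand: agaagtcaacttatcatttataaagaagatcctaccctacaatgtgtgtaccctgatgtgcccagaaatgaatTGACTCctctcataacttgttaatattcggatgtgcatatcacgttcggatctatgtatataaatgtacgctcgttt
GCV2 promoter window, chrXIII:637250-637399, forward strand: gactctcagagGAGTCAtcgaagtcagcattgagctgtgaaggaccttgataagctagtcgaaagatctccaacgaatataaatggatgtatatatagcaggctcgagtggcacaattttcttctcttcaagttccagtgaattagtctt
Each window holds 1 match, on the gene's own strand in SHM2 and ADE17 and on the other in GCV2. The core was in 15 of 28 windows of the purine and one-carbon list (53.6%), in 29 of 62 of amino acid genes (46.8%) and in 4.26% of all promoters. The 3 members that rose were PHO2 and BAS1 themselves, by 0.65 and 0.94, and MET13, a folate reductase that feeds methionine synthesis. MET13 went from 29.4, 33.8 and 31.8 CPM to 165, 138 and 114 CPM (2.13, adjusted p = 0.00591), opposite to the rest of the folate genes named here. Neither PHO2 nor BAS1 passed without replicate 1 of 3 h (0.55 and 0.97), replicate 2 of 6 h (0.69 and 0.86) or replicate 3 of 6 h (0.49 and 0.70), and PHO2 did not without replicate 3 of 3 h (0.52) nor BAS1 without replicate 2 of 3 h (0.68).

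**Figure D3:**
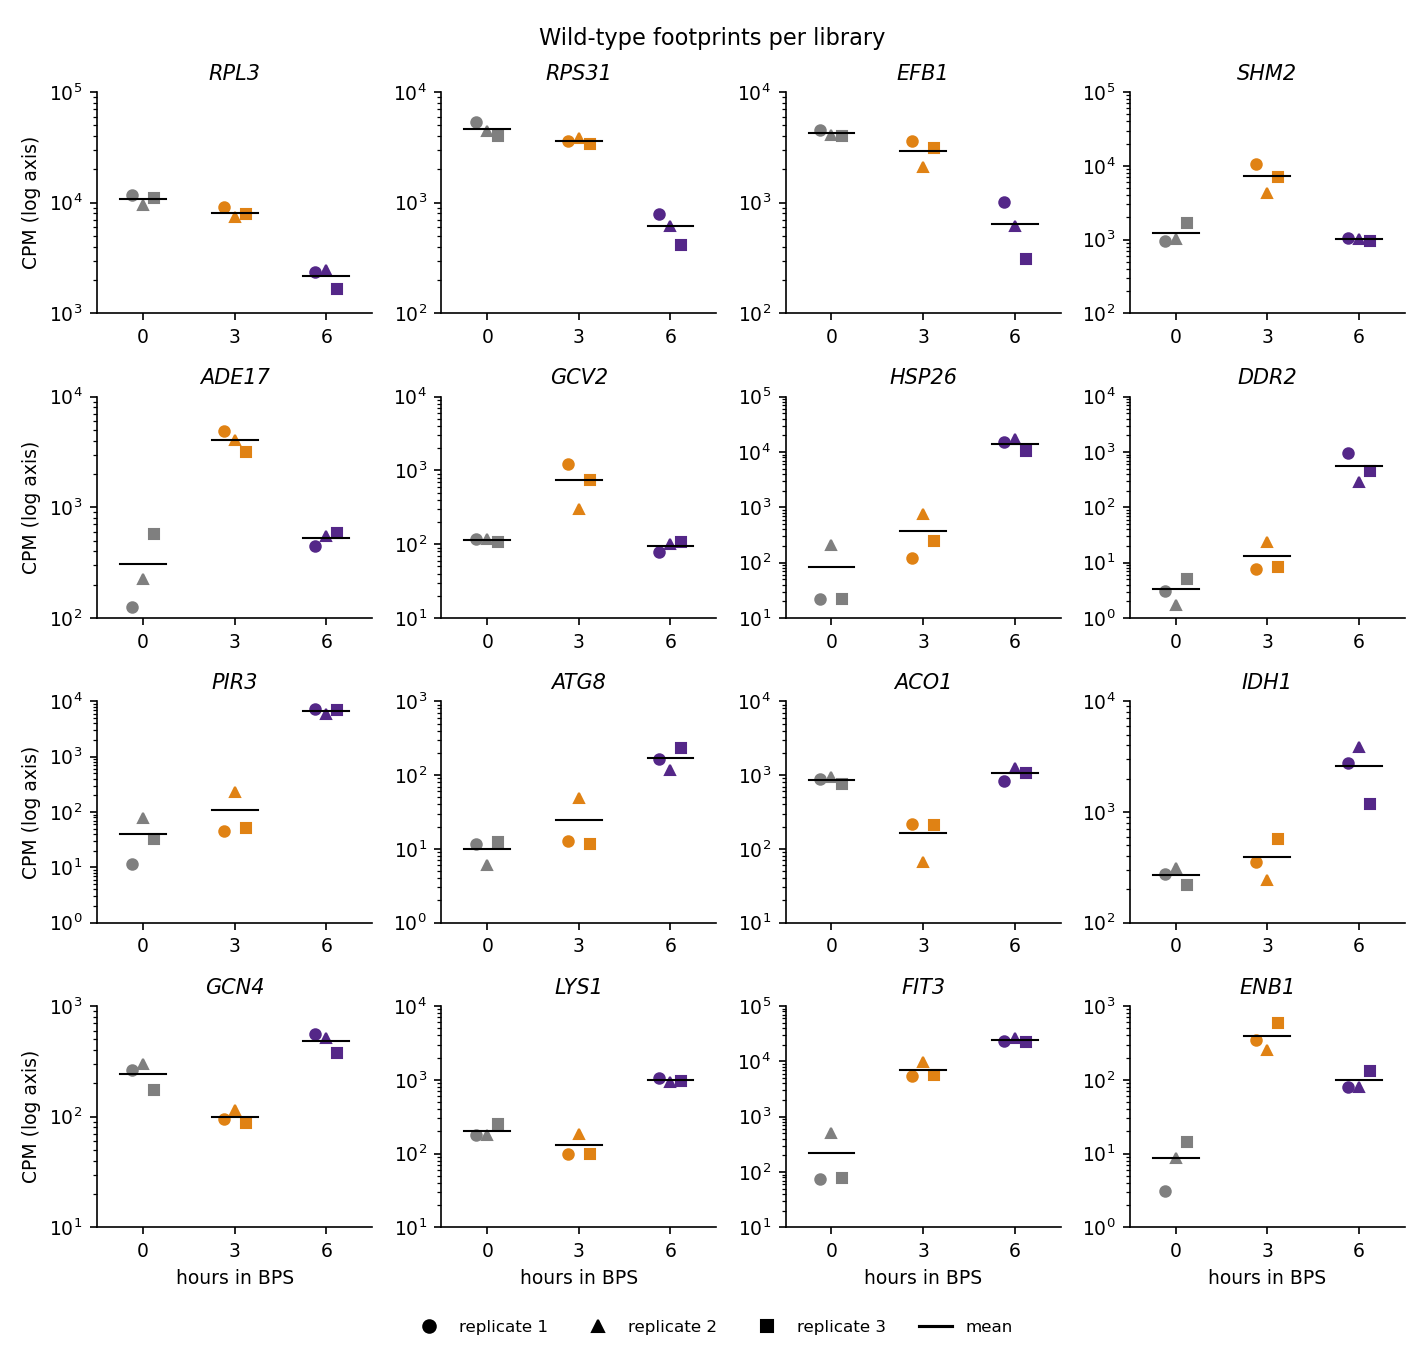
Footprint level in CPM (log axes) of 16 genes in each wild-type library at 0, 3 and 6 h in BPS; symbols mark replicates and lines the mean of 3. RPL3, RPS31 and EFB1 drop after 3 h, SHM2, ADE17 and GCV2 peak at 3 h, and HSP26, DDR2 and PIR3 are high only at 6 h, at means of 14184, 568 and 6669 CPM.

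Stress response genes rose. Of 68 tested members of the induced environmental stress response, out of 72 listed, 50 rose and none fell (median 2.41, range -0.72 to 5.84), where 21.7% of all features rose. In 46 the libraries were separated between the times, where 21.8% of all features were separated upward and 19.6% downward. The summed share of the list was 0.681%, 2.32% and 0.961% at 3 h and 7.57%, 6.00% and 8.46% at 6 h. The count was 39 to 55 when any 1 library was left out, and the median was 3.39 without replicate 2 of 3 h, the library in which these genes were already high.

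HSP26, a small heat-shock chaperone and the highest gene of the list per kilobase, had 120, 762 and 249 CPM at 3 h and 14983, 16963 and 10606 CPM at 6 h. The log2 fold change was 5.24 (SE 1.02, adjusted p = 0.00107), and 6.24 without replicate 2 of 3 h. DDR2, a small protein made under many stresses, went from 7.72, 23.9 and 8.47 CPM to 968, 291 and 445 CPM (5.45, SE 0.77, adjusted p = 9.54e-05). In both genes the lowest 6 h library was more than 10-fold above the highest 3 h library. HSP12, a membrane-stabilising protein, had already risen by 4.22 from 0 h to 3 h and went on from 687, 253 and 999 CPM to 6997, 4459 and 3453 CPM (2.94, adjusted p = 0.00825). GRE1, a hydrophilin, went from 4.47, 7.98 and 3.14 CPM to 465, 183 and 217 CPM (5.84), and SSA3, an inducible Hsp70 chaperone, from 2.03, 4.26 and 2.20 CPM to 153, 124 and 49.5 CPM (5.35). TMA10 changed by 5.68 with 619, 400 and 2446 CPM at 6 h, and by 4.50 without the last of these libraries. CTT1, the cytosolic catalase, a heme enzyme and so itself a user of iron, went from 2.92, 4.52 and 2.04 CPM to 119, 19.3 and 111 CPM (4.75). TSL1, a subunit of trehalose synthase, had 52.0, 802 and 81.2 CPM at 3 h against 1404, 637 and 1205 CPM and did not pass (1.80, adjusted p = 0.106); without replicate 2 of 3 h its change was 4.0 (adjusted p = 0.000931).

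Stress genes of this list are known to respond to the factors Msn2 and Msn4 through the element AGGGG. Windows of 3 of its members are shown because all 3 rose and they differ in this element, which is in capitals on either strand.
DDR2 promoter window, chrXV:231856-232005, reverse strand: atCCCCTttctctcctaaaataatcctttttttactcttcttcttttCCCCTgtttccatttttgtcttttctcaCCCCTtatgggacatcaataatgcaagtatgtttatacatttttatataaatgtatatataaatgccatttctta
HSP12 promoter window, chrVI:107006-107155, forward strand: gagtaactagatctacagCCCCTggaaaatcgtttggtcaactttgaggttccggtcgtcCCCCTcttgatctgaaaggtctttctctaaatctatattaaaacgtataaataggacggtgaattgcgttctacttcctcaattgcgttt
HSP26 promoter window, chrII:381780-381929, forward strand: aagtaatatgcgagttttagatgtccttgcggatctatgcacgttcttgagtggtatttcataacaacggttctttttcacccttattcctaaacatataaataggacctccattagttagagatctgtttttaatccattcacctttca
DDR2 holds 3 matches, HSP12 2 and HSP26 none within these bases. The element was in 41 of 72 windows of the list (56.9%) against 12.5% of all promoters, and in 21.1% of the promoters of all genes that rose and 9.01% of those that fell.

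Outside that list, the 12 largest rises among genes of at least 10 CPM at 6 h included genes near the floor at 3 h, whose fold changes are imprecise. SPS100, a spore-wall gene, went from 0.259, 3.46 and 0.157 CPM to 48.6, 117 and 220 CPM (7.25, SE 0.90, adjusted p = 4.68e-05), and its locus overlaps SUT169 in the annotation. BSC5 rested on 6, 6 and 1 counts at 3 h and rose to 62.6, 76.0 and 53.3 CPM (7.18). THI4, which makes the thiazole part of thiamine, went from 3.03, 44.7 and 3.14 CPM to 2950, 542 and 1431 CPM (6.66), and its change was 9.02 without replicate 2 of 3 h. PIR3, a cell-wall protein, had 44.6, 229 and 52.2 CPM at 3 h and 7186, 5983 and 6838 CPM at 6 h (5.95, SE 0.84, adjusted p = 9.1e-05). Groups were separated in all 4 genes, which the rule that picked the largest rises required. PMA2, a rarely used plasma membrane proton pump, changed by 6.30, SPG4 by 6.05, BAG7 by 5.74, LEE1 by 5.60 and THI73, a putative transporter, by 5.46. Without replicate 2 of 3 h SPS100 stood at 8.96, BSC5 at 8.12, BAG7 at 6.95, PIR3 at 7.08, DDR2 at 6.10 and THI73 at 6.15, and without replicate 3 of 6 h PMA2 stood at 5.44, LEE1 at 4.87 and SPG4 at 5.36.

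Genes that glucose normally represses rose, while several glycolysis genes fell. Of 30 glucose-repressed genes tested, out of 36 listed, 23 rose and none fell (median 2.64), where 21.7% of all features rose. The groups were separate in all that rose except MTH1, HXT7 and JEN1, where 21.8% of all features were separated upward. MTH1, a glucose-sensing repressor, and JEN1, a lactate transporter, changed by 2.61 and 3.00, but by 1.30 (adjusted p = 0.244) and 0.70 (adjusted p = 0.64) without replicate 3 of 6 h, and neither passed without replicate 1 or 2 of 3 h, nor JEN1 without replicate 3 of 3 h. YAT2, a carnitine acetyltransferase that moves acetyl units between compartments, went from 1.11, 1.60 and 1.1 CPM to 34.6, 40.8 and 47.8 CPM (5.07, SE 0.45, adjusted p = 1.07e-05). CAT8, the activator of gluconeogenesis genes, went from 3.95, 5.32 and 3.29 CPM to 50.8, 45.1 and 83.8 CPM (3.86, SE 0.38, adjusted p = 2.53e-05). The replicates of both genes were close together at each time. HXT5, a hexose transporter of slow-growing cells, went from 0.702, 5.32 and 1.41 CPM to 204, 89.5 and 184 CPM (6.29, and 7.34 without replicate 2 of 3 h). HXT6 and HXT7, near-identical genes for high-affinity transporters whose shared reads make each count uncertain, changed by 5.04 and 2.46; without replicate 3 of 6 h, where HXT6 had 151 CPM against 5.25 and 8.39 CPM, these became 2.00 (adjusted p = 0.132) and 1.02 (adjusted p = 0.357). HXT7 also did not pass without replicate 1 or 2 of 3 h (2.11 and 2.10, adjusted p = 0.124 and 0.0851). Of 11 hexose transport genes 7 rose, with 2 called without replicate 3 of 6 h, 3 without replicate 1 and 4 without replicate 2 of 3 h.

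Of 18 glycolysis genes 9 fell and 1 rose (median -0.80), against 18.6% and 21.7% of all features. ADH1, the main alcohol dehydrogenase, went from 12831, 17705 and 10241 CPM to 4799, 6244 and 4723 CPM (-1.37, adjusted p = 0.00567), and ENO2, enolase, from 24480, 31570 and 21857 CPM to 13658, 10316 and 6610 CPM (-1.35, adjusted p = 0.00131). Both were separated between the times. CDC19, pyruvate kinase, changed by -1.1 and TDH3, the highest of the list per kilobase, by -0.81 (adjusted p = 0.0335). TDH3 did not pass without replicate 1 or 2 of 3 h (-0.83 and -0.67, adjusted p = 0.0719 and 0.0964), without replicate 2 or 3 of 6 h (-0.81 and -0.54, adjusted p = 0.0773 and 0.123) or with total-count scaling (-0.69, adjusted p = 0.0587). PDC5, a spare pyruvate decarboxylase gene, rose by 3.95 with 455, 24.4 and 57.1 CPM at 6 h, but by 1.82 (adjusted p = 0.198) without the first of these libraries, and its adjusted p was 0.0721 and 0.0713 without replicates 1 and 3 of 3 h. The number of glycolysis genes that fell was 5 without replicate 3 of 6 h and 6 without replicate 1 or 2 of 3 h or replicate 2 of 6 h.

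Most autophagy genes, which serve self-digestion, and some genes for reserve carbohydrates rose. Of 20 trehalose and glycogen genes 9 rose and 1 fell (median 1.86), against 21.7% and 18.6% of all features. Without replicate 2 of 3 h 15 of them rose, and without replicate 3 of 6 h 5 did. GDB1, the glycogen debranching enzyme, went from 52.4, 173 and 64.9 CPM to 584, 468 and 690 CPM (2.59, adjusted p = 0.00142; 3.28 without replicate 2 of 3 h), and GAC1, which targets a phosphatase to glycogen synthase, changed by 3.87 (3.13 without replicate 3 of 6 h, 5.25 without replicate 2 of 3 h). Of 32 autophagy genes tested 23 rose and none fell (median 1.49), with 14 called without replicate 1 and 15 without replicate 3 of 3 h. ATG1, the kinase that starts autophagy, went from 9.38, 25.3 and 11.3 CPM to 101, 117 and 135 CPM (2.98, SE 0.37, adjusted p = 4.68e-05). ATG8, the ubiquitin-like protein that coats the autophagosome membrane, went from 12.7, 49.2 and 11.8 CPM to 165, 116 and 233 CPM (2.83, SE 0.48, adjusted p = 0.000394), and the change was 3.77 without replicate 2 of 3 h. Neither gene overlapped between the times. ATG39, a receptor for digestion of the nuclear envelope, changed by 3.79 and ATG32, the mitochondrial receptor, by 2.00, with 38.2, 84.6 and 31.4 CPM at 3 h and 198, 235 and 180 CPM at 6 h. ATG41, which is on both the autophagy and the iron regulon list, went from 36.5, 163 and 46.0 CPM to 685, 1136 and 2051 CPM (3.99, SE 0.59, adjusted p = 0.000128; 4.94 without replicate 2 of 3 h). ATG12 and ATG5, whose products are joined to each other, had values of -0.64 and -0.61 and did not pass, though ATG12 fell by 1.16 (adjusted p = 0.0281) without replicate 1 of 6 h.

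Most of the iron regulon rose from 0 h to 3 h, and most of it did not pass in the late step. From 0 h to 3 h 26 of its 35 genes rose (74.3%, against 3.67% of all features), with a median of 3.31, and from 3 h to 6 h 9 rose, 1 fell and 25 did not pass (25.7% rising against 21.7% of all), with a median of 0.62. In the late step 28 of the 35 had positive values, and in 13 every 6 h library lay above every 3 h library (21.8% of all features did). The 2 steps share the 3 h libraries, so a high 3 h value raises the first and lowers the second. The regulon's share of all footprint counts was a mean of 0.154% at 0 h, and then 1.63%, 2.21% and 2.38% at 3 h and 4.38%, 4.97% and 5.10% at 6 h. FIT3, a cell-wall mannoprotein that retains siderophores and the highest gene of the list per kilobase, had 5484, 9660 and 5781 CPM at 3 h and 23717, 26158 and 21954 CPM at 6 h, with no overlap, but its change of 1.78 (SE 0.70) had an adjusted p of 0.0529; it was 0.0194 with DESeq2, 0.0496 with RLE factors, 0.0412 with total-count scaling, 0.0103 with only the groups compared and 0.0211 with the replicate block. The window of FIT3 is shown because it carries the Aft core TGCACCC, in capitals as its reverse complement.
FIT3 promoter window, chrXV:1061156-1061305, reverse strand: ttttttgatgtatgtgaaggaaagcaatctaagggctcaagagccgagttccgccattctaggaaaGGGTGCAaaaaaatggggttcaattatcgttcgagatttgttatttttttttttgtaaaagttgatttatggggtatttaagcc
This core was in 14 of 35 windows of the regulon (40.0%) and in 0.802% of all promoters.

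The regulon's genes for surface iron reductases, for the ferroxidase and permease pair and for siderophore binding and transport did not pass in either direction, apart from ENB1, a siderophore transporter. FET3, the multicopper ferroxidase of high-affinity uptake, had 2415, 2464 and 4906 CPM at 3 h and 1523, 1836 and 4398 CPM at 6 h (-0.34, SE 0.52, adjusted p = 0.633). ARN1, a siderophore transporter, had 176, 423 and 469 CPM and then 473, 420 and 721 CPM (0.60, adjusted p = 0.481). Both overlapped between the times. ENB1 fell, from 346, 252 and 582 CPM to 81.0, 79.3 and 133 CPM (-2.01, SE 0.54, adjusted p = 0.00818), after 3.10, 8.72 and 14.2 CPM at 0 h. The 9 genes that rose were AFT2, CTH1, TIS11, VHT1, CCC2, ISU1, PRY1, HMX1 and ATG41. VHT1, the biotin transporter, and CCC2, the pump that loads copper into Fet3, did not pass without replicate 1 or 2 of 3 h or replicate 3 of 6 h (1.13 and 1.17 without the last). HMX1, heme oxygenase, which frees iron from heme, went from 376, 63.9 and 377 CPM to 1147, 1104 and 1334 CPM (2.13, adjusted p = 0.00298). ISU1, the scaffold on which iron-sulfur clusters are built, went from 99.2, 112 and 117 CPM to 368, 451 and 330 CPM (1.81, adjusted p = 0.000484), and PRY1, a sterol-binding secreted protein, from 632, 1300 and 523 CPM to 4604, 3178 and 2186 CPM (2.02). TIS11, which encodes Cth2, was at 4.65, 11.3 and 3.01 CPM at 0 h, 349, 454 and 303 CPM at 3 h and 937, 1121 and 1205 CPM at 6 h (1.56, adjusted p = 0.028, and not past the threshold without replicate 1 or 3 of 3 h, at adjusted p = 0.0823 and 0.0961, or without replicate 2 or 3 of 6 h, at 0.0557 and 0.0654). CTH1 went from 19.1, 33.5 and 22.3 CPM to 42.9, 77.5 and 56.0 CPM (1.25, adjusted p = 0.00913). In the deletion strain TIS11 had a mean of 0.511 CPM at 3 h and 1.16 CPM at 6 h and CTH1 0.0337 and 0.0815 CPM, which checks that strain's label.

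Most citric acid cycle genes and some genes of the respiratory chain, among them known targets of Cth2, rose in the late step. Of 16 citric acid cycle genes 10 rose and none fell in the late step (median 1.12), where 1 had risen and 4 had fallen in the early one. Over all features 21.7% rose and 18.6% fell in the late step, and 3.67% and 1.81% in the early one. ACO1, aconitase, an iron-sulfur enzyme, was at 876, 942 and 769 CPM at 0 h, 218, 67.1 and 211 CPM at 3 h and 842, 1252 and 1074 CPM at 6 h. The late change was 2.67 (SE 0.38, adjusted p = 9.14e-05) and the early one -2.38, so footprints were back in the range of the 0 h libraries at 6 h or above it. IDH1, isocitrate dehydrogenase, had 354, 242 and 575 CPM at 3 h and 2745, 3890 and 1179 CPM at 6 h (2.74, SE 0.45, adjusted p = 0.000294), IDH2 changed by 2.39 and CIT1, citrate synthase, by 2.73. None of these overlapped between 3 h and 6 h. KGD2, LSC1, LSC2, FUM1, PYC2 and LPD1 did not pass and lay between -0.06 and 0.40.

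Of 26 nuclear genes of the respiratory chain 8 rose and none fell (30.8% against 21.7% of all), with a median of 0.86. From 0 h to 3 h 15 of the 26 had fallen (median -1.89), against 1.81% of all features. The count of late rises was 5 without replicate 2 or 3 of 3 h and without replicate 1 or 3 of 6 h. CYC7, the second isoform of cytochrome c, used when oxygen or heme is low, went from 1.29, 3.19 and 1.41 CPM to 36.8, 22.3 and 145 CPM (5.26, and 4.04 without the last of these libraries). NDI1, the internal NADH dehydrogenase, which carries no iron, went from 27.5, 23.9 and 29.6 CPM to 128, 103 and 243 CPM (2.54, adjusted p = 0.000171), and NDE2, an external one, changed by 3.35. CYC1, the main isoform of cytochrome c, was at 661, 661 and 589 CPM at 0 h, 55.1, 1.06 and 67.8 CPM at 3 h and 20.1, 36 and 14.1 CPM at 6 h, a late change of -0.82 (SE 0.92, adjusted p = 0.501) with groups that overlap. SDH2, the iron-sulfur subunit of succinate dehydrogenase, rose from 12.9, 7.45 and 10.8 CPM to 27.6, 13.9 and 25.1 CPM (1.06, adjusted p = 0.0347), with all values below its 69.8, 83.7 and 80.8 CPM at 0 h. SDH2 did not pass without replicate 2 or 3 of 3 h (0.85 and 1.05) or replicate 1 or 3 of 6 h (0.88 and 0.94), at adjusted p of 0.105, 0.0885, 0.0947 and 0.107. No gene of the 15 of the mitochondrial ATP synthase passed (median -0.12), 3 fell without replicate 1 of 6 h, and 1, ATP2, rose with DESeq2 or with scaling by total counts. The sign of that median was positive with total-count scaling and without replicate 3 of 3 h or replicate 2 or 3 of 6 h.

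**Figure D4:**
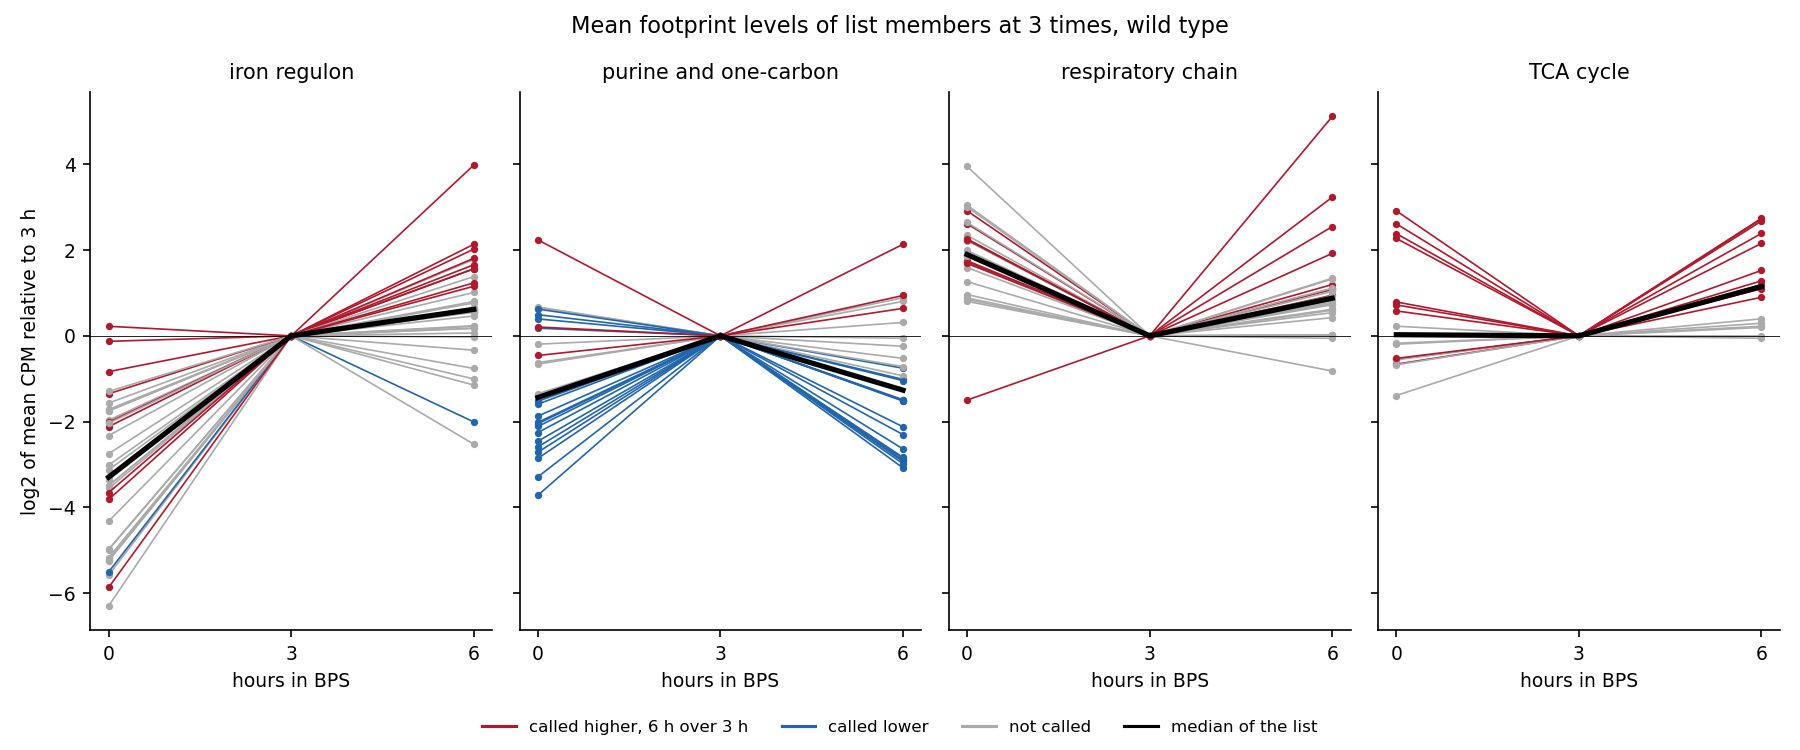
Mean footprint level (log2 CPM relative to 3 h) at 0, 3 and 6 h for each tested gene of 4 lists in the wild type. Red lines were called higher and blue lower from 3 h to 6 h, grey neither, and the black line is the median; the median late changes were 0.62 for the iron regulon, -1.26 for purine and one-carbon genes, 0.86 for the respiratory chain and 1.12 for the citric acid cycle.

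Among 36 genes listed as iron-dependent enzymes outside respiration 7 rose and 8 fell, against 21.7% and 18.6% of all features (median 0.15, and -0.04 without replicate 2 of 3 h, where 4 rose and 11 fell). Those that rose beside ACO1 and CTT1 were iron-sulfur enzymes of amino acid synthesis (ILV3, LYS4 and LEU1) and ERG1 and ERG5 of sterol synthesis, of which ERG1 is known as a flavin enzyme. Of these, ILV3 did not pass without replicate 2 or 3 of 3 h or replicate 2 of 6 h, LYS4 without replicate 2 of 3 h or 3 of 6 h, ERG1 without replicate 2 of 6 h (0.91, adjusted p = 0.0521), and ERG5 without replicate 1 or 2 of 3 h or 2 or 3 of 6 h (1.63, adjusted p = 0.158, without the last). LEU1, the iron-sulfur enzyme of leucine synthesis, was at 288, 256 and 247 CPM at 0 h, 59.8, 33.0 and 41.6 CPM at 3 h and 118, 170 and 139 CPM at 6 h (1.66, SE 0.28, adjusted p = 0.00037). It recovered in part and without overlap. GLT1, glutamate synthase and another iron-sulfur enzyme, was at 1106, 1041 and 932 CPM, then 190, 51.6 and 101 CPM and then 32.8, 91.8 and 72.6 CPM (late change -0.79, adjusted p = 0.109; -1.18, adjusted p = 0.0119, without replicate 2 of 3 h). RNR2, the iron-containing small subunit of ribonucleotide reductase, fell from 346, 414 and 302 CPM to 199, 201 and 198 CPM (-0.83, adjusted p = 0.00614) and its partner RNR4 by 1.09. RLI1, an iron-sulfur protein that recycles ribosomes, fell by 1.29, and DPH2 and DPH1, which modify elongation factor 2, by 1.55 and 1.25; DPH2 did not pass without replicate 1 or 3 of 3 h or replicate 1 or 3 of 6 h (-1.21, -1.41, -1.34 and -1.26) and stood at -2.32 without replicate 2 of 6 h. GRX4, a glutaredoxin that signals iron status to Aft1, was at 5.72, 2.13 and 4.86 CPM and then 0.438, 2.83 and 0.571 CPM (-1.50, not past the threshold). Its value was -1.79 and -3.04 (adjusted p = 0.0301 and 0.012) without replicate 2 of 3 h or of 6 h. In replicates 1 and 3 of 6 h the floor of 3 counts stood at 1.31 and 0.571 CPM, so GRX4 lay at or under it there and these values are imprecise. In iron-sulfur assembly 3 of 25 genes rose and 2 fell, where 21.7% and 18.6% of all features did. ISA1, a late assembly factor, went from 14.9, 9.58 and 9.25 CPM to 40.3, 51.7 and 34.1 CPM (1.88, adjusted p = 0.000505) and MGE1, a mitochondrial co-chaperone, fell by 1.18. Beside the same shares of all features, 4 of 22 genes of the heme and hypoxic list rose and 2 fell. Those that rose included the transcription factors HAP1 (2.12) and ROX1 (2.05), while AAC3, an anaerobic nucleotide carrier, fell by 2.07. HAP1 stood at 1.43 (adjusted p = 0.0526) without replicate 3 of 6 h and at 2.76 without replicate 2 of 3 h.

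Genes of amino acid synthesis moved both ways. Of 62 genes 20 rose and 12 fell (32.3% and 19.4%, against 21.7% and 18.6% of all), with a median of 0.04. Of the genes that rose, 7 act in lysine synthesis and 6 in arginine synthesis. LYS1, the last step to lysine, went from 100, 186 and 99.6 CPM to 1070, 927 and 976 CPM (2.95, SE 0.55, adjusted p = 0.000725), LYS20, the first, changed by 2.32 and LYS2 by 2.03. ARG4, argininosuccinate lyase, chosen after its values were seen, went from 145, 382 and 161 CPM to 1008, 1031 and 759 CPM (2.03, adjusted p = 0.00241). The genes that fell included SER2 and SER1 of serine synthesis, at -1.95 and -1.63, and PRO3 of proline synthesis, at -1.49. The number of falls was 6 without replicate 1 of 3 h or replicate 3 of 6 h and 8 without replicate 3 of 3 h. MET2, which starts methionine synthesis, rose from 1.44, 0.798 and 1.25 CPM to 32.8, 12.8 and 6.48 CPM (3.73; 2.94 without replicate 1 of 6 h), and SAM1, S-adenosylmethionine synthetase, fell by 1.99.

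GCN4, the transcriptional activator of amino acid genes, whose own translation is set by short reading frames upstream, was at 265, 297 and 173 CPM at 0 h, 95.4, 114 and 88.3 CPM at 3 h and 562, 511 and 373 CPM at 6 h. The late change in footprints was 2.28 (SE 0.41, adjusted p = 0.000563), with no overlap. Its RNA had 996, 847 and 1413 CPM at 3 h and 1068, 952 and 1131 CPM at 6 h and did not pass (-0.05, adjusted p = 0.938). The change of footprints relative to RNA was 2.28 (SE 0.53, adjusted p = 0.0659), and 2.24 (adjusted p = 0.00896) in the fit that pairs both measurements of a lysate. In the cth1Δcth2Δ strain GCN4 footprints were 231, 209 and 378 CPM at 3 h and 443, 108 and 259 CPM at 6 h (-0.01); the difference of -2.29 between the strains had an adjusted p of 0.355 in edgeR and 0.036 in DESeq2.

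Most core histone genes and some cell cycle genes fell. Of 10 core histone genes 7 fell and none rose (median -1.09); HTA2 went from 540, 228 and 548 CPM to 149, 54.3 and 52.0 CPM (-2.38, adjusted p = 0.00204; -3.04 without replicate 1 of 6 h) while HTB1, the highest per kilobase, had 1435, 1105 and 1218 CPM and then 878, 891 and 1906 CPM (-0.03). Histone genes come in near-identical pairs, and reads could be split between them. Of 22 cyclin and cell cycle genes 8 fell and 1 rose (36.4%, against 18.6% of all features falling), the falls including the mitotic cyclin CLB2 (-1.67), the S-phase cyclin CLB6 (-2.27) and the G1 cyclin CLN2 (-1.58); 5 fell without replicate 1 of 3 h or replicate 3 of 6 h. CLB2 went from 97.2, 96.6 and 85.8 CPM to 34.6, 25.7 and 28.2 CPM, with close replicates and no overlap. Of 34 proteasome genes 1 passed, RPN4, the activator of the others, from 33.8, 102 and 32.0 CPM to 183, 227 and 335 CPM (2.16; 2.88 without replicate 2 of 3 h), and the median was -0.21. Without replicate 1 of 6 h 12 proteasome genes fell and 2 rose. Among 23 RNA decay factors 6 rose and 2 fell (26.1% and 8.70%, against 21.7% and 18.6% of all), and 4 to 7 rose when 1 library was left out, with EDC2, a decapping enhancer, at 2.35 (2.97 without replicate 2 of 3 h) and PUF3, which binds mRNAs of mitochondrial proteins, at 1.25, from 60.5, 60.7 and 60.5 CPM to 124, 152 and 154 CPM.

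Genes of other metals, of sterol and sulfur metabolism and of DNA precursors were called both ways, beside 21.7% of all features rising and 18.6% falling. Of 12 zinc regulon genes 2 rose and none fell (median 0.70): ZAP1, the zinc-sensing activator, went from 117, 221 and 109 CPM to 310, 523 and 718 CPM (1.80, SE 0.42, adjusted p = 0.00361), without overlap, and ZPS1, a cell-surface protein, changed by 1.51 (adjusted p = 0.0317). ZPS1 did not pass without any 1 library of 3 h (1.56, 1.27 and 1.71) or without replicate 3 of 6 h (1.14). Of 6 copper uptake genes tested, out of 10 listed, 2 rose and 1 fell: MAC1, the copper-sensing activator, changed by 0.79, CTR1, the plasma membrane copper transporter, by 1.49 and CTR2, the vacuolar one, by -1.26. Single libraries decided these 3 calls: CTR1 stood at 1.06, 1.68 and 1.03 without replicates 1 and 3 of 3 h and 3 of 6 h, MAC1 at 0.71 without replicate 3 of 3 h, and CTR2 at -1.16, -1.11, -0.99 and -1.03 without replicates 1 and 3 of 3 h and 2 and 3 of 6 h, all short of the threshold, with CTR2 at -1.92 without replicate 1 of 6 h. Of 24 ergosterol synthesis genes 3 rose and 1 fell (median 0.16). With 1 library left out 0 to 3 of them rose and 0 to 2 fell, and the median ran from -0.01 to 0.29. Of 17 sulfate assimilation genes 4 rose and 1 fell (median 0.35, and -0.03 without replicate 1 of 6 h), and with 1 library left out 2 to 4 rose and 1 to 4 fell. MET4, the activator of the sulfur genes, went from 74.0, 86.0 and 80.8 CPM to 117, 172 and 172 CPM (0.94, SE 0.23, adjusted p = 0.0053), with no overlap. Of 11 genes of ribonucleotide reductase and the DNA damage response 2 rose and 4 fell; WTM1, which holds the small subunit of the reductase in the nucleus, went from 156, 241 and 153 CPM to 407, 406 and 560 CPM (1.32, SE 0.24, adjusted p = 0.000566). Of 7 tested meiosis and sporulation genes, out of 13 listed, 2 rose. IME1, the inducer of meiosis, was at 2.33, 2.62 and 2.47 CPM at 0 h, 2.66, 2.93 and 2.67 CPM at 3 h and 13.1, 12.9 and 14.1 CPM at 6 h (2.28, SE 0.31, adjusted p = 7.03e-05). Its libraries were nearly equal within each time and separated between 3 h and 6 h.

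Compared directly, the late step differed from the early step in 279 of 5315 features (5.25%), with 130 changing more upward in the late step (2.45%) and 149 more downward (2.80%); 1134 had an unadjusted p under 0.05. The number ranged from 39 without replicate 1 of 3 h and 45 without replicate 3 of 3 h to 491 without replicate 2 of 3 h and 715 without replicate 1 of 6 h, and was 107 to 132 without any 1 of the 0 h libraries and 143 and 170 without replicates 2 and 3 of 6 h, so the number rested on single libraries. With scaling by total counts the split was 156 upward and 92 downward. With the replicate number as a block it was 434, 174 upward and 260 downward; same-numbered libraries deviated together between 0 h and 3 h but not between 3 h and 6 h. Of the differing features 63 were cytosolic ribosomal protein genes, all more downward, which had a median of -0.46 in the early step and -2.31 in the late one; with the block they were 96. The iron regulon gave 14 of 35, all more downward (22 with the block, and 1 more upward), and the respiratory chain 10 of 26 and the citric acid cycle 7 of 16, all more upward. Stress genes gave 3 of 68, and 6 with the block: their median was 1.85 in the early step and 2.41 in the late one, with 18 called in the first and 50 in the second. The early step called 291 features in all (5.48%) and the late one 2145 (40.4%). Both steps use the same 3 h libraries.

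Poly(A) RNA changed in the late step too. Of 6006 features tested 1361 changed (22.7%), 690 upward (11.5%) and 671 downward (11.2%). The RNA libraries of 6 h were small, with 113262, 215168 and 5089523 counts, and the number was 830 without replicate 1 and 766 without replicate 3 of 3 h and 769 without replicate 3 of 6 h. Scaling by total counts in place of TMM moved the median RNA change from 0.02 to 0.41 and the split to 1303 upward and 354 downward. Of the 5290 features in both fits 1035 were called in both, 1032 of them in one direction, which is 48.4% of the footprint calls and 81.4% of the RNA calls. Across genes, which are not independent replicates, the log2 changes of the 2 assays, made from the same lysates, had a Pearson r of 0.85. RNA of the ribosomal protein genes fell in 135 of 136 (median -1.90), of stress genes rose in 52 (median 2.21) and of glucose-repressed genes rose in 21 of 35 (median 1.67). RPL3 RNA changed by -1.53, HSP26 RNA by 4.42, SHM2 RNA by -2.66 and ACO1 RNA by 2.42.

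**Figure D5:**
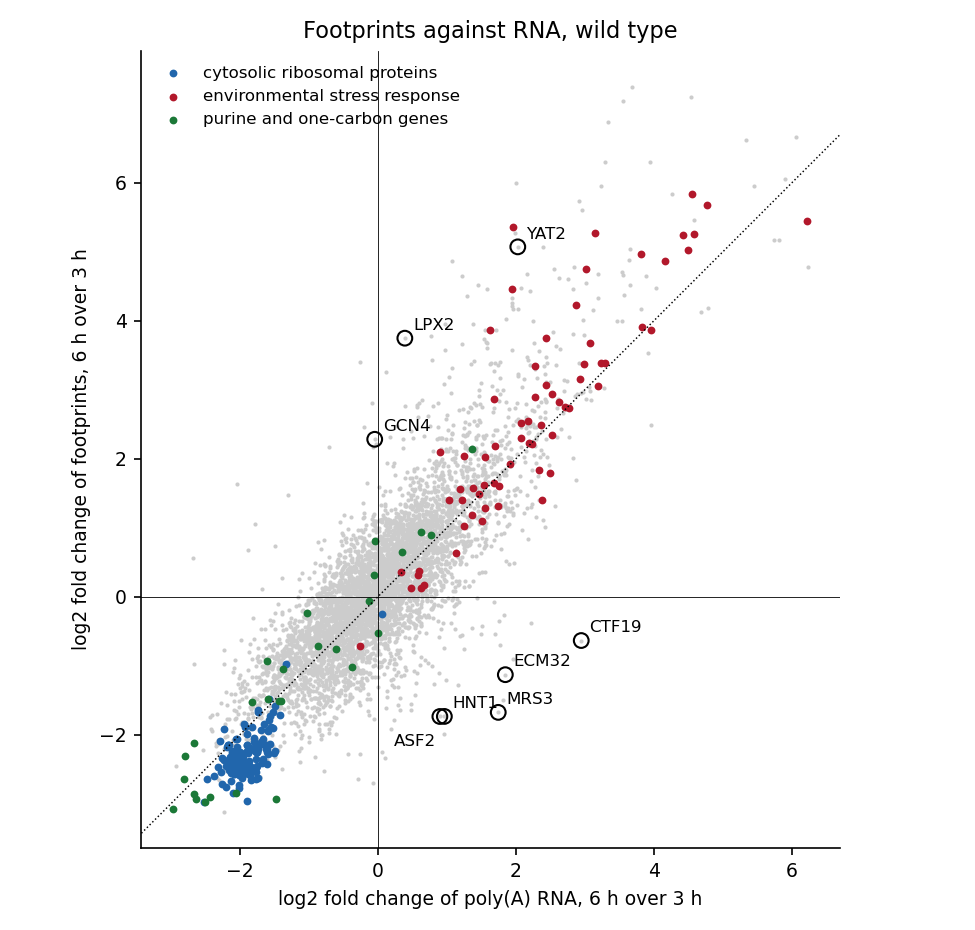
Log2 fold change of footprints (vertical) against that of poly(A) RNA (horizontal), 6 h over 3 h in the wild type, for 5290 features; each grey point is a feature, colours mark 3 lists, circles mark GCN4 and the 7 features called for footprints relative to RNA, and the dotted line is equality. Ribosomal protein genes gather at the lower left, at medians of -2.31 in footprints and -1.90 in RNA.

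Changes of footprints relative to RNA, tested in 1 model of both assays, passed in 7 of 5290 features (0.132%), 2 upward (0.0378%) and 5 downward (0.0945%), with 367 at an unadjusted p under 0.05 (6.94%). Footprints and RNA of a lysate varied together, and with the lysate as a block 83 passed, 44 upward (0.832%) and 39 downward (0.737%). The count was 17 without footprint replicate 2 of 3 h, 25 without footprint replicate 1 of 6 h and 4 without RNA replicate 1 of 3 h. YAT2 was called upward: its RNA was 24.7, 17.9 and 22.3 CPM at 3 h and 59.3, 127 and 79.5 CPM at 6 h, while its footprints rose far more, and the relative change was 2.99 (SE 0.51, adjusted p = 0.00307; 3.09, adjusted p = 0.00167, with the block). MRS3, a mitochondrial iron transporter, was the clearest the other way. Its footprints fell from 25.9, 22.6 and 21.8 CPM to 5.25, 9.81 and 6.28 CPM while its RNA went from 57.0, 70.5 and 55.4 CPM to 193, 134 and 269 CPM, a relative change of -3.46 (SE 0.53, adjusted p = 0.00139). ECM32, a helicase, had footprints of 31.4, 21.6 and 26.5 CPM and then 7.0, 17.3 and 11.0 CPM with RNA rising from 94.3, 154 and 87.4 CPM to 297, 503 and 392 CPM (-3.02, SE 0.50, adjusted p = 0.00307). HNT1 had a relative change of -2.73 (adjusted p = 0.00886; 0.0538 without RNA replicate 1 of 3 h). In MRS3 and ECM32 both groups were separated in both assays, in opposite directions, though MRS3 RNA at 6 h rested on 26 and 37 counts in the small libraries. LPX2, ASF2 and CTF19, named because they complete the 7, made up the rest, at 3.30, -2.68 and -3.63, and CTF19 overlaps IRC15. LPX2 lost its call in 7 of the 12 fits without 1 library, ASF2 in 5 and CTF19 in 2, with the highest adjusted p of 0.204 without footprint replicate 1 of 3 h, 0.115 without that same library and 0.18 without RNA replicate 3 of 6 h. With only the groups compared, ECM32, HNT1, LPX2 and ASF2 were not called.

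With the lysate block, stress genes gave 4 of 67 upward and glucose-repressed genes 4 of 30 upward, with none downward, against 0.832% of all features upward and 0.737% downward. SSA3 had a relative change of 3.13 (adjusted p = 0.00167), BSC5 of 3.66 (adjusted p = 0.00332) and CAT8 of 2.15 (adjusted p = 0.00709), and all 3 also rose in RNA. GRX4 had -3.24 (adjusted p = 0.0127), with an RNA change of 1.81 and a footprint change of -1.50, on footprints at or under the floor in replicates 1 and 3 of 6 h. Of 135 ribosomal protein genes 1 passed downward, and the list's median was -0.56.

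The deletion strain also had a broad late step. Its footprints changed in 1861 of 5315 features from 3 h to 6 h (35.0%), 918 upward (17.3%) and 943 downward (17.7%). Ribosomal protein genes fell in 130 of 135 (median -2.13 against -2.31 in the wild type), stress genes rose in 57 of 68 (2.82 against 2.41), citric acid cycle genes rose in 10 of 16, and purine and one-carbon genes fell in 19 of 28 (-1.57 against -1.26). Tested as a difference between the strains, no feature passed in edgeR (0%), with 344 at an unadjusted p under 0.05 (6.47%), and DESeq2 called 16. Leaving out replicate 1 of the deletion strain at 6 h gave 15, all with a lower change in that strain. Among lists with unlike medians, 22 of 74 mitochondrial ribosomal protein genes rose and none fell in the deletion strain (median 0.56 against -0.51). Their fitted strain difference was positive in 74 of 74, with a median of -0.04 over all features. None passed in edgeR, and genes measured in the same libraries are not independent replicates of a strain. In amino acid synthesis 2 rose and 28 fell in the deletion strain (median -0.70 against 0.04). Other lists differed too. With the replicate block in the deletion strain, meiosis genes had a median of 1.30 against -0.23 in the wild type, fitted without that block. Sulfate assimilation genes had -0.70 against 0.35 in the same fits, so these values are not from one model. The wild-type value of the sulfate genes was -0.03 without replicate 1 of 6 h. The 16 genes that DESeq2 called included 6 for mitochondrial ribosomal proteins (MRPL11, MRPS9, MRPL27, RSM19, MRPL49 and RSM26). Also called were GCN4, LYS21, ARG4, GRE1 and YAT2. LYS21 changed by -0.64 and ARG4 by -0.38 in the deletion strain, and neither passed there. GRE1 and YAT2 rose there by 2.33 and 2.62, against 5.84 and 5.07 in the wild type. LYS2, which is not among the 16, changed by 0.09 in the deletion strain and did not pass.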

How the data were processed

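The deposited files hold raw read counts per feature, 1 file per library, with each feature's length in bases. Per the submitters' processing notes, cutadapt 3.4, Bowtie 1.1.2 and STAR 2.7.9a were used with genome build R64; the counting program, its use of strand and its treatment of reads that match several genes are not given in the sources used here. Per the labels' protocols, footprints came from RNase I-treated lysates made with cycloheximide, from the 80S fraction of a gradient, and RNA from poly(A) selection and alkaline hydrolysis.

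Of 7127 features 6047 matched a name in RefSeq's R64 annotation, 6008 of them protein coding; 1080 did not match and were kept under their own names. Protein-coding features held 99.9% of footprint counts. Total counts were 2254894 to 28491058 in the 6 footprint libraries, and deeper libraries bound low genes more closely. Groups, times and replicates were taken from the labels. All 18 footprint libraries were fitted with 1 mean per strain and time in edgeR 4.0.16 (R 4.3.3, limma 3.58.1), with TMM factors, filterByExpr at a minimum count of 10 and Benjamini-Hochberg adjustment at 0.05. RNA was fitted alike over its 18 libraries, and footprints relative to RNA, late against early step and the strain difference were contrasts tested directly. Code was tested on simulated data. Alternatives were DESeq2 1.42.0, RLE factors, total counts as scale, no filter on low counts, a fit of the compared groups alone, a replicate block and each library left out.

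Footprints and RNA with the same number come from 1 lysate: their deviations from group means had r of 0.517, 0.718 and 0.585 at 3 h and 0.339, 0.335 and 0.281 at 6 h, so the fit with a lysate block is given where it moves the count. Same-numbered footprint libraries had r of 0.368, 0.169 and 0.252 between 0 h and 3 h and 0.372, 0.244 and 0.378 between 3 h and 6 h of the deletion strain, over the limit of 0.1 taken to pair samples, and fits of these steps with a replicate block were added after seeing the data. Replicates are described in the labels as biological triplicates.

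The comparison, the 32 gene lists and 1 added list were chosen with earlier results of these data known. The rule named 164 genes: the 12 largest rises and the 12 largest falls past the threshold with separate libraries and at least 10 CPM, up to 4 called members of each list and its highest member per kilobase, the 5 largest values each way of the other contrasts, and a fixed panel, 1 gene of which is not reported here. Genes outside it, chosen after their values were seen, were ADE2, AFT2, ARG4, ASF2, ATG12, ATG32, ATG5, ATP2, BAS1, CCC2, CTF19, DPH1, DPH2, FUM1, GCN2, ILV3, JEN1, KGD2, LPD1, LPX2, LSC1, LSC2, LYS4, LYS21, MAF1, MET13, MRPL11, MRPL27, MRPL49, MRPS9, PHO2, PRO3, PYC2, RLI1, RPL15B, RSM19, RSM26, SER1, SER2, STE2, STE3, TFC3 and VHT1. Promoter windows of 150 bases came from RefSeq's R64 genome (strain S288C), whereas the cells were of the W303 background.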

Additional observations from a re-analysis of the deposited data

Results flagged for a closer look

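The footprint change from 3 h to 6 h differed from that from 0 h to 3 h in 279 features by the test of that difference, and both steps share the 3 h libraries. Below, each value is the log2 change of the late step minus that of the early step, for the 5 largest differences each way among genes of at least 10 CPM on average in at least 1 of the 3 times, so that another time can lie near the floor.

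Among features that turned upward, YLR108C differed by 9.29, with 9.30, 17.4 and 9.73 CPM at 0 h, at most 0.798 CPM at 3 h and 9.19, 6.43 and 11.0 CPM at 6 h. BSC5 differed by 8.55. YER053C-A differed by 7.93, with 2.11, 3.99 and 4.55 CPM at 3 h and 220, 57.2 and 90.8 CPM at 6 h. CYC7 differed by 7.80, and COX26, a small subunit of cytochrome oxidase, by 7.72, with 5.43, 0.872 and 11.0 CPM at 0 h, 0.591, 0.266 and 1.88 CPM at 3 h and 9.63, 5.67 and 58.8 CPM at 6 h. All of these were lowest at 3 h on average, which their choice by this difference favours. The 3 h values of YLR108C, BSC5 and COX26 lie near the floor of 3 counts, so the size of these differences is imprecise. Of these calls, BSC5 was lost without replicate 3 of 0 h or replicate 1 of 3 h, COX26 without replicate 1 or 3 of 0 h or of 3 h and with only the groups compared, CYC7 without replicate 1 or 3 of 3 h, and YER053C-A without replicate 1 of 3 h.

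Among features that turned downward, ENB1 differed by -7.35, CSS1 by -6.88, ADE17 by -6.64, FRE3 by -6.15 and GCV1 by -6.14. These were highest at 3 h on average, which their choice by this difference favours. CSS1 had 0, 1.74 and 0.860 CPM at 0 h, 16.6, 53.8 and 28.9 CPM at 3 h and 2.19, 4.90 and 23.4 CPM at 6 h, so its 3 h and 6 h libraries overlapped. FRE3, a siderophore-iron reductase, had 1.55, 5.23 and 0.806 CPM, then 50.1, 19.4 and 82.0 CPM and then 12.3, 17.7 and 38.5 CPM, and its call was lost without replicate 3 of 0 h and without replicate 1 or 3 of 3 h. GCV1 had 24.0, 29.7 and 74.5 CPM, then 487, 171 and 591 CPM and then 59.1, 51.7 and 56.6 CPM, with the 3 h libraries above all others.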

How the results depend on the processing

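The count of features with changed footprints, 2145, was 2101 to 2379 with RLE factors, total counts as scale, no low-count filter, DESeq2 or the replicate block, and 1122 with only the groups compared. It ran from 1362 to 2466 when 1 library was left out. The split of 1154 higher and 991 lower became 1377 and 803 with total counts as scale, which moved the median of all features from 0.06 to 0.19. The 1361 changed features in RNA were 766 to 1618 when 1 library was left out. Footprints relative to RNA gave 7 calls, 15 with DESeq2, 3 with only the groups compared, 83 with the lysate as replicate block, and 4 to 25 with 1 library left out. The late step differed from the early one in 279 features, 528 with DESeq2, 98 with only the groups compared, 434 with the replicate block, and 39 to 715 with 1 library left out. The strain difference gave 0 calls, 16 with DESeq2 and 0 to 15 with 1 library left out. The cause of these shifts was not tested. Deviations of same-numbered footprint libraries of 3 h and 6 h had r of 0.228, -0.173 and 0.045, so the numbers do not pair these times; with the replicate block the count of changed footprints was 2360. The block, added after seeing the data, gave 365 in place of 291 features for the wild type from 0 h to 3 h and 2045 in place of 1861 for the deletion strain from 3 h to 6 h, and the strain difference kept 0 calls (406 at an unadjusted p under 0.05). Over all settings but those that leave out a library, named genes' values kept their side of the threshold in 1027 cases, newly fell short in 34 and newly passed in 20. No value reversed. Of 134 named genes called, 106 were called whichever library of 3 h or 6 h was left out, and all 134 kept their sign. With only the groups compared fewer list members passed, such as 25 ribosome biogenesis genes, 13 autophagy genes and no upward RNA polymerase gene. Medians changed sign with single libraries left out in the lists of iron-sulfur assembly, heme, RNA decay, amino acid, sulfate assimilation and ergosterol genes. The same held for iron-dependent enzymes outside respiration, the mitochondrial ATP synthase and MATa markers. Depth limits low genes most in the 6 h RNA libraries, the smallest of which held 113262 counts.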
